A study of Mus musculus with 16 samples.

Results

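Cell cycle transcripts were examined in lung endothelial cells (ECs) of mice at a young and an old age, with and without bleomycin injury. The set held 40 genes, found by symbol among the 43346 genes of the deposited count and FPKM table, and every member was matched. Of these, 16 act at the G1/S boundary and in DNA replication, and 24 act in G2 and mitosis. There were 16 libraries, of which 5 were Young Sham, 4 Young Bleo, 3 Aged Sham and 4 Aged Bleo. The age was 2 months in the young groups and 18 months in the aged ones. All mice were of the FVB strain and, by the study's methods, carried a GFP reporter of collagen I in every group and were of both sexes. Bleo mice received bleomycin, a drug that breaks DNA and causes lung fibrosis, through the trachea, and Sham mice the carrier alone, and the lungs were taken at day 30. The sort kept cells with surface CD31 and dropped those with CD45, EpCAM or GFP, so it does not resolve capillary, arterial and venous cells. The labels do not say that the libraries of a group came from separate mice, while the study describes the RNA as taken from the lungs that it profiled as individual mice.

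Cells enter S phase when cyclin-dependent kinases release E2F factors, which switch on the genes of replication licensing, nucleotide supply and DNA synthesis. A later program, held down in resting cells by the DREAM complex and driven in G2 by MuvB together with B-Myb and FoxM1, supplies mitotic cyclins, kinases, kinetochore proteins and the machinery of cytokinesis. Adult lung endothelium is largely quiescent and divides after injury, when capillary cells replace those that were lost. In bulk samples such as these, more dividing cells and more of a transcript per cell cannot be told apart.

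The promoters of both groups are shown first, because the members share sequence elements that their selection did not use. The windows are those of RefSeq on GRCm38.p6, each of 300 bases around an annotated start site and written 5′ to 3′ on the strand of the gene. Windows were found for 13 of the 16 G1/S genes and 20 of the 24 G2/M genes, and Mcm4, Ccne2, Gins2, Kif20a, Aurkb, Tpx2 and Ccna2 had none in the table. Capitals mark letters that match, on either strand, the cell cycle homology region (CHR, TTTGAA or TTCGAA), to which MuvB complexes are known to bind, the CCAAT box (CCAAT), the element of NF-Y, or an E2F motif (TTTCCCGC, TTTCGCGC, TTTGCCGC or TTTGGCGC). Ccnb2 (chr9:70421505-70421804, minus strand) and Birc5 (chr11:117848987-117849286, plus strand) had the lowest adjusted p of the G2/M genes with a window in Young Bleo against Young Sham. Tyms (chr5:30073576-30073875, minus strand) and E2f1 (chr2:154569377-154569676, minus strand) stood likewise among the G1/S genes. Cdk1 (chr10:69352863-69353162, minus strand), Plk1 (chr7:122159185-122159484, plus strand), Mcm6 (chr1:128359656-128359955, minus strand) and Mcm3 (chr1:20820263-20820562, minus strand) were added after the matches were seen, as windows that hold them.
Ccnb2: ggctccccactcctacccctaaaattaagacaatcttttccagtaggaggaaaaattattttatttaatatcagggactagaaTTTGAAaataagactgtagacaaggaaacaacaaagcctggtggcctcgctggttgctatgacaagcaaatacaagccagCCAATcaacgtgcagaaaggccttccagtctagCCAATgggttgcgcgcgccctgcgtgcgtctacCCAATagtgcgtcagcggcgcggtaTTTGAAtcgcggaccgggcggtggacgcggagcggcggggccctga
Cdk1: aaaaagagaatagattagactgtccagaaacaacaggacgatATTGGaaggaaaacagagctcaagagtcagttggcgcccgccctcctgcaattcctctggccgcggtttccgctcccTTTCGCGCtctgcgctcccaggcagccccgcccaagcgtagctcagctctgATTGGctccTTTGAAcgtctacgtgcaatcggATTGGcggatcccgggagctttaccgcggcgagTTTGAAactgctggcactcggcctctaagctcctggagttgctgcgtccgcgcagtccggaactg
Plk1: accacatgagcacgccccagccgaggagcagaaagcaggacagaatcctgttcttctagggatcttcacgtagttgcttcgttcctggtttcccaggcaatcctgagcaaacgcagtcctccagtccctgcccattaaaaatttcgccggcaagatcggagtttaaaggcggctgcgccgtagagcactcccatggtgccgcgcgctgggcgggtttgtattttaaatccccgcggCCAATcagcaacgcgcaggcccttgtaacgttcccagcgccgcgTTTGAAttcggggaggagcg
Birc5: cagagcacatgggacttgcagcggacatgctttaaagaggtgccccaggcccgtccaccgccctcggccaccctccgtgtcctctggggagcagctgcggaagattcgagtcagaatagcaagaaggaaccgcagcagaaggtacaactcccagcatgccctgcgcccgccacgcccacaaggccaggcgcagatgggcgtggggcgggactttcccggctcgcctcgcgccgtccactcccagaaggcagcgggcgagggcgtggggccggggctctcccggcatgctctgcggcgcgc
Mcm6: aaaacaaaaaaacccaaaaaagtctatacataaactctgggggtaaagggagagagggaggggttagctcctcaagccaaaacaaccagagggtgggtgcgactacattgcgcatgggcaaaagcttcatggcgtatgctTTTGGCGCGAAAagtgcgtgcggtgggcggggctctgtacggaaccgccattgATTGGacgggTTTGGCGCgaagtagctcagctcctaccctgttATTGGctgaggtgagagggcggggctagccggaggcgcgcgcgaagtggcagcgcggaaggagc
Mcm3: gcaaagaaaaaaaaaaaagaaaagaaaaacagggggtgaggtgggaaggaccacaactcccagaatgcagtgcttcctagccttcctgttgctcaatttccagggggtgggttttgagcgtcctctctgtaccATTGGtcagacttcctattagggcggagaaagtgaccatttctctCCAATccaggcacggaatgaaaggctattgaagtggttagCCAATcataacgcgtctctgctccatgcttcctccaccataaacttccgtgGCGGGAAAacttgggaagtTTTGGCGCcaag
Tyms: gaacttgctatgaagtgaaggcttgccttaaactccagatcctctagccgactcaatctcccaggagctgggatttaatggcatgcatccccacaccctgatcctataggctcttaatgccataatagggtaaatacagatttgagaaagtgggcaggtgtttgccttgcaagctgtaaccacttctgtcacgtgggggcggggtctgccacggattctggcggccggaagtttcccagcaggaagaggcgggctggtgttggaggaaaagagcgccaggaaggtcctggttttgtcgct
E2f1: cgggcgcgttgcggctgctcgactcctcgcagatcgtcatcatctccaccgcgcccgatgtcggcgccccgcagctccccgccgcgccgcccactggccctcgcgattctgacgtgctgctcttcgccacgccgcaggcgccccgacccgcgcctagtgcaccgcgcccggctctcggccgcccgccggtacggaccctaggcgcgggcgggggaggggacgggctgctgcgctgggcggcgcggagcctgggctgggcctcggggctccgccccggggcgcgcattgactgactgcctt

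A CHR element was present in 17 of the 21 G2/M windows (81.0%) and in 2 of the 15 G1/S windows (13.3%), against 19.2% of all 32851 windows. The CCAAT box was present in 18 G2/M windows (85.7%) and 10 G1/S windows (66.7%), against 37.4% of all windows. Both elements stood together in 16 of the 21 G2/M windows (76.2%), in 2 G1/S windows and in 7.52% of all windows. An E2F motif was present in 7 G1/S windows (46.7%) and in 1 G2/M window, that of Cdk1, against 2.26% of all windows. The Ccnb2 window held 3 CCAAT boxes, which began at positions -87, -54 and -21 from the start site, and CHR elements at positions -167 and 5. The Cdk1 window held 3 CCAAT boxes (-208, -80 and -48), CHR elements at -71 and -15 and an E2F motif at -131. The Plk1 window had its CCAAT box at -14 and its CHR element at 31, and the Mcm6 window had E2F motifs at -110, -106 and -47, of which those at -110 and -106 share bases. None of these letters was found in the windows of Birc5, Tyms or E2f1, and the RefSeq start site of the E2f1 window lies 466 bases inside the gene as the deposited table draws it. In all, 6 of the 15 G1/S windows (those of Pcna, E2f1 and Cdc6, 1 of Uhrf1 and both of Mcm7) are built on a start site more than 100 bases inside the deposited gene, and 0 of the 21 G2/M windows are. Among the other 9 G1/S windows, 1 held a CHR element (11.1%), 6 a CCAAT box (66.7%) and 4 an E2F motif (44.4%). Windows for Mcm7, Uhrf1 and Prc1 were counted as the 2 that each has. These are matches of letters, described without a test, and matches to different motifs shared bases in 1 pair, in a Mcm7 window.

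**Figure D1:**
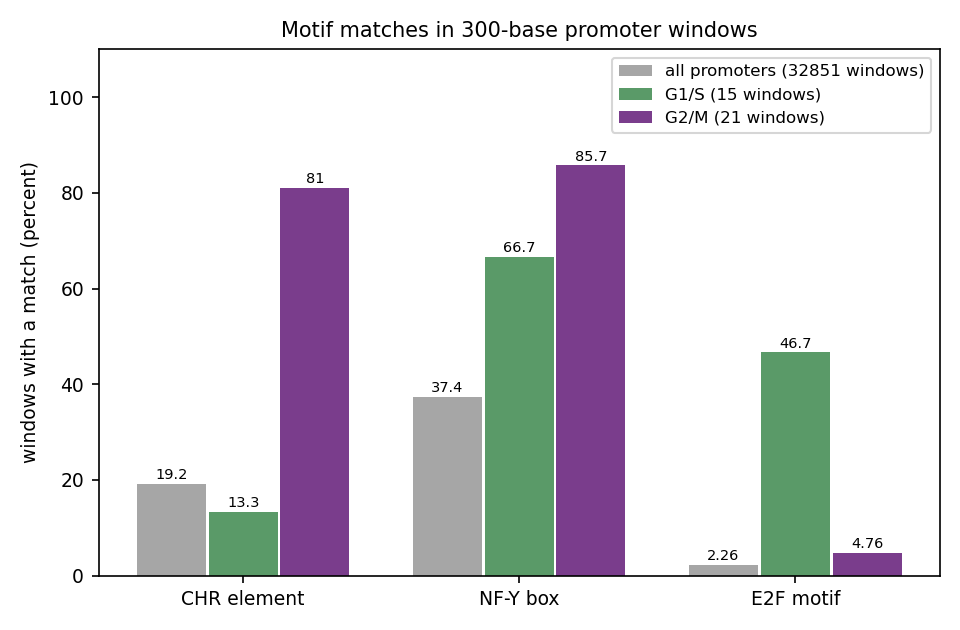
Percentage of 300-base promoter windows with at least 1 match to the CHR element, the NF-Y box (CCAAT) or an E2F motif on either strand, for all 32851 RefSeq windows, 15 windows of G1/S genes and 21 windows of G2/M genes. The CHR bar is highest for G2/M genes (81.0%) and the E2F bar for G1/S genes (46.7%).

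All 40 genes were detected, at low levels for most. Values per library are given in the order of the library numbers, 21 to 25 for Young Sham, 17 to 20 for Young Bleo, 13 to 15 for Aged Sham, and 1, 2, 3 and 5 for Aged Bleo. Total counts ranged from 20907113 to 71035301 per library, lowest in a Young Sham and highest in an Aged Bleo library. On the FPKM scale, which divides by gene length, the mean over the 16 libraries ran from 0.0813 (Cdc6) to 12.0 (Pcna) in the G1/S genes, with a median of 1.54. The G2/M genes ran from 0.0937 (Cenpf) to 3.08 (Cdc20), with a median of 0.456. The endothelial markers Pecam1 and Cdh5 were at 66.6 to 152 and 67.6 to 111 FPKM, and Ptprc, the gene of CD45, was at 0 to 0.517 FPKM.

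Pcna, the sliding clamp of DNA polymerases, was the most abundant member. Its FPKM was 12.0, 10.7, 9.49, 13.7 and 12.4 in Young Sham and 13.6, 12.1, 15.2 and 10.8 in Young Bleo. Aged Sham libraries gave 13.2, 10.6 and 11.0 FPKM and Aged Bleo libraries 11.9, 13.3, 11.5 and 9.96. The 4 groups overlapped throughout. Mcm3, a subunit of the replicative helicase, was next among the G1/S genes by mean FPKM. It gave 3.25, 3.13, 2.75, 1.93 and 2.45 FPKM in Young Sham and 4.16, 2.85, 3.88 and 3.96 in Young Bleo. In the aged groups it gave 1.50, 2.47 and 3.51 FPKM after sham and 4.52, 2.82, 3.21 and 2.61 after bleomycin, again with overlap. Cdc6, which loads that helicase onto origins, was the least abundant G1/S gene. It gave 57.6, 56.0, 8.20, 9.36 and 0 normalized counts in Young Sham and 129, 119.6, 84.9 and 58.7 in Young Bleo, so that every Young Bleo library was above the highest Young Sham library, by a narrow margin. In aged mice it gave 38.0, 0 and 15.5 after sham and 36.1, 35.4, 25.2 and 14.6 after bleomycin. Counts for 7 members are uncertain because a gene with a higher mean level overlaps them in the table and the strand setting is not given in the sources used here: Mcm7 (Cops6), Cdt1 (Gm20388), Ccne2 (Ints8), Ccna2 (Exosc9), Kif20a (Cdc23), Cdc20 (Elovl1) and Gins2 (Gm20388 and Gse1).

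The level of each phase was summarised per library as the mean of log2(normalized count + 1) over its genes, given here without a test. The G2/M mean was 6.47, 6.73, 6.78, 6.13 and 5.66 in Young Sham and 8.22, 9.11, 8.17 and 7.58 in Young Bleo, with no overlap. It was 5.60, 6.56 and 6.49 in Aged Sham and 8.40, 8.69, 6.84 and 7.38 in Aged Bleo, where libraries 1 and 2 stood far above sham and library 3 just above the highest sham library. Group means were 6.35 ± 0.47 (SD, n = 5), 8.27 ± 0.63 (SD, n = 4), 6.22 ± 0.54 (SD, n = 3) and 7.83 ± 0.86 (SD, n = 4) in the same order. The G1/S mean differed less between the groups, at 8.34, 8.50, 8.09, 7.79 and 7.74 in Young Sham and 9.08, 9.41, 8.97 and 8.74 in Young Bleo, without overlap. It was 7.92, 8.03 and 8.03 in Aged Sham and 9.17, 8.85, 8.14 and 8.49 in Aged Bleo. These gave group means of 8.09 ± 0.33, 9.05 ± 0.28, 7.99 ± 0.06 and 8.66 ± 0.45 (SD) in that order. Within libraries, the G2/M mean lay below the G1/S mean by 1.74 ± 0.29 in Young Sham and by 0.78 ± 0.36 in Young Bleo, and by 1.77 ± 0.48 and 0.83 ± 0.50 in the aged groups (SD). The spread among bleomycin libraries exceeded that among sham libraries for the G2/M mean at both ages.

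**Figure D2:**
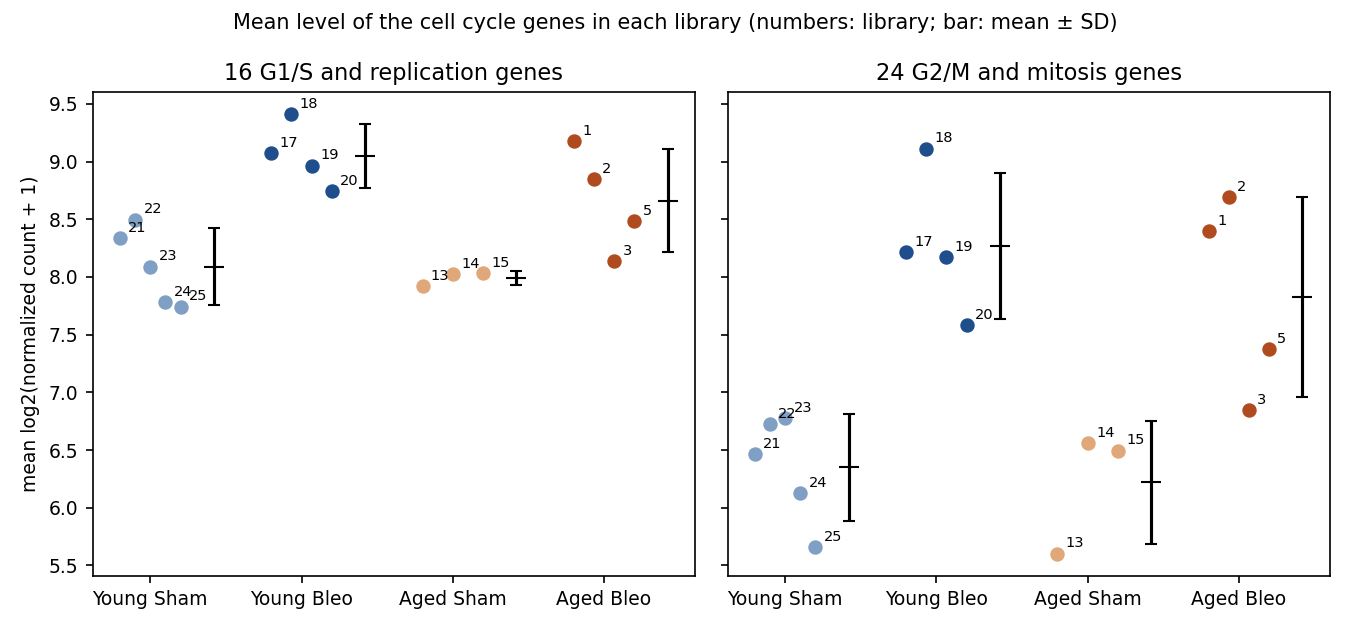
Mean log2(normalized count + 1) over 16 G1/S genes (left) and 24 G2/M genes (right) in each library, numbered as in the titles, with the group mean and SD as a bar. All Young Bleo libraries lie above all Young Sham libraries in both panels, and Aged Bleo libraries 3 and 5 lie closer to Aged Sham than libraries 1 and 2 do.

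The first comparison asked which members the bleomycin injury moved in young mice. A gene was called when its DESeq2 p, adjusted over all genes tested by the Benjamini-Hochberg method, was 0.05 or less and its log2 fold change was 0.5 or more in size. In Young Bleo against Young Sham, 18 of the 24 G2/M genes rose and 0 fell, while 1 of the 16 G1/S genes rose and 0 fell. Over all genes tested, 7.57% were called higher. By edgeR the counts were 16 and 1, beside 5.69% of all genes. The median log2 fold change was 1.76 over the G2/M genes and 0.64 over the G1/S genes, against 0.01 over all genes tested. The median SE of a log2 fold change was 0.48 for the G2/M genes and 0.30 for the G1/S genes. In 16 G2/M genes and 4 G1/S genes every Young Bleo library exceeded every Young Sham library, where 7.62% of all genes did so.

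**Figure D3:**
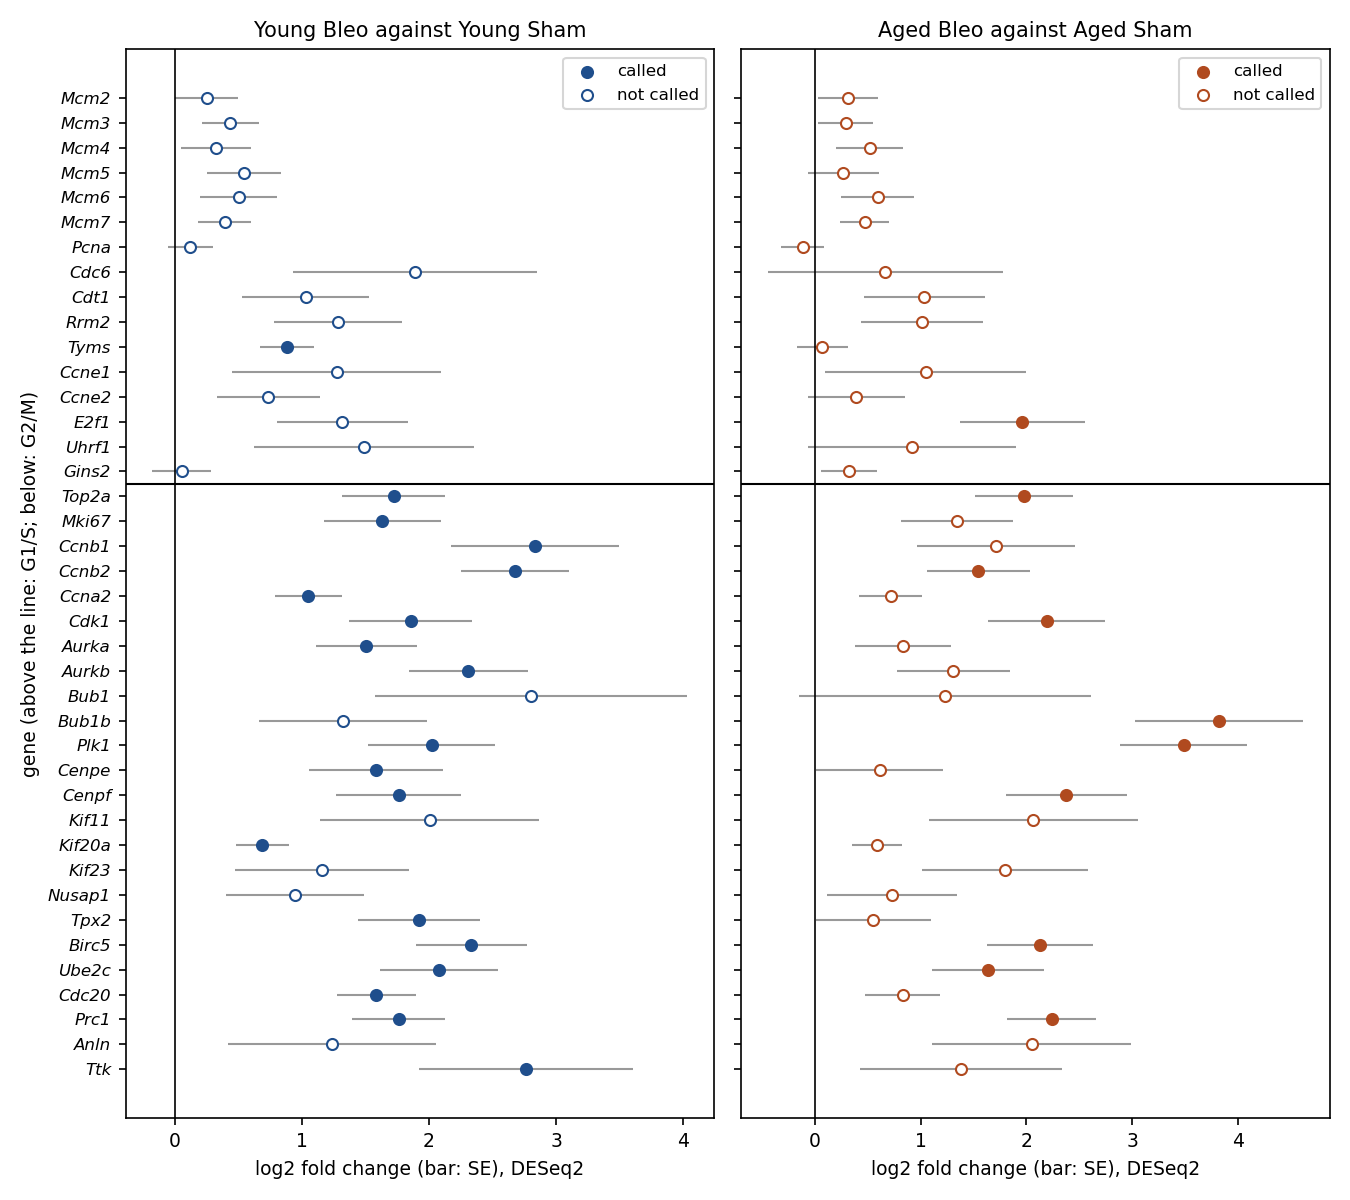
Log2 fold change of each gene, with its SE, in Young Bleo against Young Sham (left) and Aged Bleo against Aged Sham (right), from DESeq2. Filled points were called, 19 on the left and 10 on the right, and most of them lie below the line, among the G2/M genes.

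All 4 genes of the mitotic cyclins and their kinase rose in young mice. Ccnb2, which encodes cyclin B2, gave 138, 75.0, 123, 73.7 and 77.2 normalized counts in Young Sham and 659, 957, 593 and 274 in Young Bleo. Every injured library exceeded every sham library, and library 18 was the highest. The difference was 2.68 ± 0.42 (SE) on the log2 scale (adjusted p = 5.38e-08 by DESeq2 and 0.00221 by edgeR). Its FPKM averaged 0.627 ± 0.206 (SD, n = 5) and 4.02 ± 1.78 (SD, n = 4). Ccnb1, cyclin B1, the partner of Cdk1 at mitotic entry, gave 79.3, 84.9, 32.8, 28.1 and 8.80 and then 266, 557, 379 and 138. The groups did not overlap, and it changed by 2.83 ± 0.66 (adjusted p = 0.00045). Cdk1, the kinase that drives mitosis, gave 144, 189, 158, 234 and 143 normalized counts in Young Sham and 472, 1014, 831 and 199 in Young Bleo, with library 20 inside the sham range, and changed by 1.86 ± 0.48 (adjusted p = 0.00205). Ccna2, cyclin A2, which serves in S phase and G2, changed by 1.05 ± 0.26 (adjusted p = 0.00136).

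The Aurora and Polo kinases and the chromosomal passenger gene Birc5 (survivin) rose as well, 4 of 4. Birc5 gave 87.8, 96.4, 135, 140.4 and 126 normalized counts in Young Sham and 469.6, 935, 695 and 259 in Young Bleo. The groups did not overlap, and the log2 fold change was 2.33 ± 0.44 (adjusted p = 6.68e-06 by DESeq2 and 0.00459 by edgeR). Its partner Aurkb, with 65.1, 60.1, 47.2, 49.1 and 64.5 in Young Sham and 265, 466, 196 and 212 in Young Bleo, changed by 2.31 ± 0.47 (adjusted p = 4.41e-05), Plk1 by 2.02 ± 0.50 (adjusted p = 0.00107) and Aurka, the kinase of the spindle poles, by 1.51 ± 0.40 (adjusted p = 0.00247). Both members that serve the anaphase-promoting complex rose. Cdc20, its mitotic activator, gave 309.7, 287, 344, 364 and 339 normalized counts in Young Sham and 941, 1577, 917 and 511 in Young Bleo. It was the most abundant G2/M gene, at 1.74 ± 0.126 FPKM (SD, n = 5) against 5.28 ± 2.31 (SD, n = 4), and its log2 fold change was 1.59 ± 0.31 (adjusted p = 1.78e-05 by DESeq2 and 0.00459 by edgeR). Ube2c, the ubiquitin-conjugating enzyme of that complex, with 142, 158, 94.3, 92.4 and 138 in Young Sham and 485, 865, 569.7 and 199 in Young Bleo, changed by 2.08 ± 0.46 (adjusted p = 0.000232).

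Checkpoint and kinetochore genes were mixed, with 3 of 5 called. Ttk, the kinase Mps1 of the spindle checkpoint, with 3.78, 36.2, 45.1, 9.36 and 0 normalized counts in Young Sham and 103, 208, 143 and 50.2 in Young Bleo, changed by 2.76 ± 0.84 (adjusted p = 0.0106; edgeR 0.0613). The kinetochore genes Cenpe and Cenpf changed by 1.58 ± 0.52 (adjusted p = 0.0213; edgeR 0.0634) and 1.76 ± 0.49 (adjusted p = 0.00479). Cenpf, the G2/M gene with the lowest FPKM, gave 57.6, 133, 53.3, 95.9 and 35.2 normalized counts in Young Sham and 231, 379.5, 245 and 164 in Young Bleo, without overlap. Bub1 and Bub1b, kinases of the same checkpoint, were not called, at 2.80 ± 1.23 (95% interval 0.39 to 5.21) and 1.32 ± 0.66 (95% interval 0.03 to 2.62). Their intervals are wide, and Bub1 was at 0 in both Young Sham 24 and Young Sham 25. Of the 7 genes of spindle, midzone and cytokinesis, 3 were called. Prc1, which bundles the central spindle, changed by 1.76 ± 0.36 (adjusted p = 6.02e-05), Tpx2, the activator of Aurora A, by 1.92 ± 0.48 (adjusted p = 0.00123) and Kif20a, a kinesin of cytokinesis whose counts may include reads of Cdc23, by 0.69 ± 0.21 (adjusted p = 0.00941). Kif11, Kif23, Nusap1 and Anln had log2 fold changes of 2.01 ± 0.86, 1.16 ± 0.68, 0.94 ± 0.54 and 1.24 ± 0.82 and were not called. Of the chromosome genes, Top2a, the topoisomerase of chromosome separation, with 211, 133, 141, 125 and 131 in Young Sham and 385, 792, 447 and 336 in Young Bleo, changed by 1.72 ± 0.41 (adjusted p = 0.000538) and Mki67, which encodes Ki-67, by 1.63 ± 0.46 (adjusted p = 0.00531).

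Young Bleo 18 carried the highest value of its group in 23 of the 24 G2/M genes, and Young Bleo 20 the lowest in 19. Mki67 was at 313, 1088, 346 and 314 normalized counts in Young Bleo against 121, 255, 205, 118 and 132 in Young Sham, so that library 18 stood far above the other three. Without Young Bleo 18, 14 G2/M genes were called, each of them among the 18, and Mki67, Ttk, Kif20a and Cenpe were not. The share of all genes called higher was then 6.29%. Of the G1/S genes, library 18 was the highest in 6 and library 17 in 5.

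Among the G1/S genes only Tyms, the thymidylate synthase that makes dTMP, was called in young mice by DESeq2 and by edgeR. It gave 836, 729, 691, 600.1 and 553 normalized counts in Young Sham and 1239.8, 1485, 1430.4 and 872 in Young Bleo, and every injured library exceeded every sham library. The log2 fold change was 0.88 ± 0.21 (adjusted p = 0.000757 by DESeq2 and 0.0115 by edgeR). E2f1, the activator of the G1/S program, gave 159, 135, 41.0, 229 and 104 and then 445, 394, 325 and 172, with library 20 inside the sham range, and a log2 fold change of 1.32 ± 0.52 (adjusted p = 0.0618). Rrm2, a subunit of ribonucleotide reductase, gave 245, 203, 168, 255 and 138 in Young Sham and 293, 985, 422 and 269.7 in Young Bleo, without overlap, with a log2 fold change of 1.28 ± 0.50 (adjusted p = 0.0638). Both missed the threshold, and both were called when only the 2 young groups were fitted.

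The 9 genes of licensing and of the replicative helicase held 0 calls, where 7.57% of all genes were called higher, so that this count alone is near the background. Their log2 fold changes ran from 0.05 (Gins2, a helicase cofactor) to 1.89 (Cdc6). The helicase subunits Mcm2, Mcm3, Mcm4, Mcm5, Mcm6 and Mcm7 differed by 0.25 ± 0.25, 0.44 ± 0.23, 0.33 ± 0.28, 0.55 ± 0.29, 0.50 ± 0.30 and 0.39 ± 0.20. The upper 95% limits for Mcm2 and Mcm7 were 0.73 and 0.79, below the median of the G2/M genes. Pcna differed by 0.12 ± 0.18 (95% interval -0.23 to 0.47). Cdt1, the licensing factor that works with Cdc6, and Uhrf1, which keeps DNA methylation through replication, differed by 1.03 ± 0.50 and 1.49 ± 0.86 and were not called. Ccne1 and Ccne2, the E-type cyclins of S phase entry, differed by 1.27 ± 0.83 and 0.74 ± 0.40 and were not called either. All 40 log2 fold changes were above 0 in this comparison, where 9408 of the 18515 genes tested were.

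**Figure D4:**
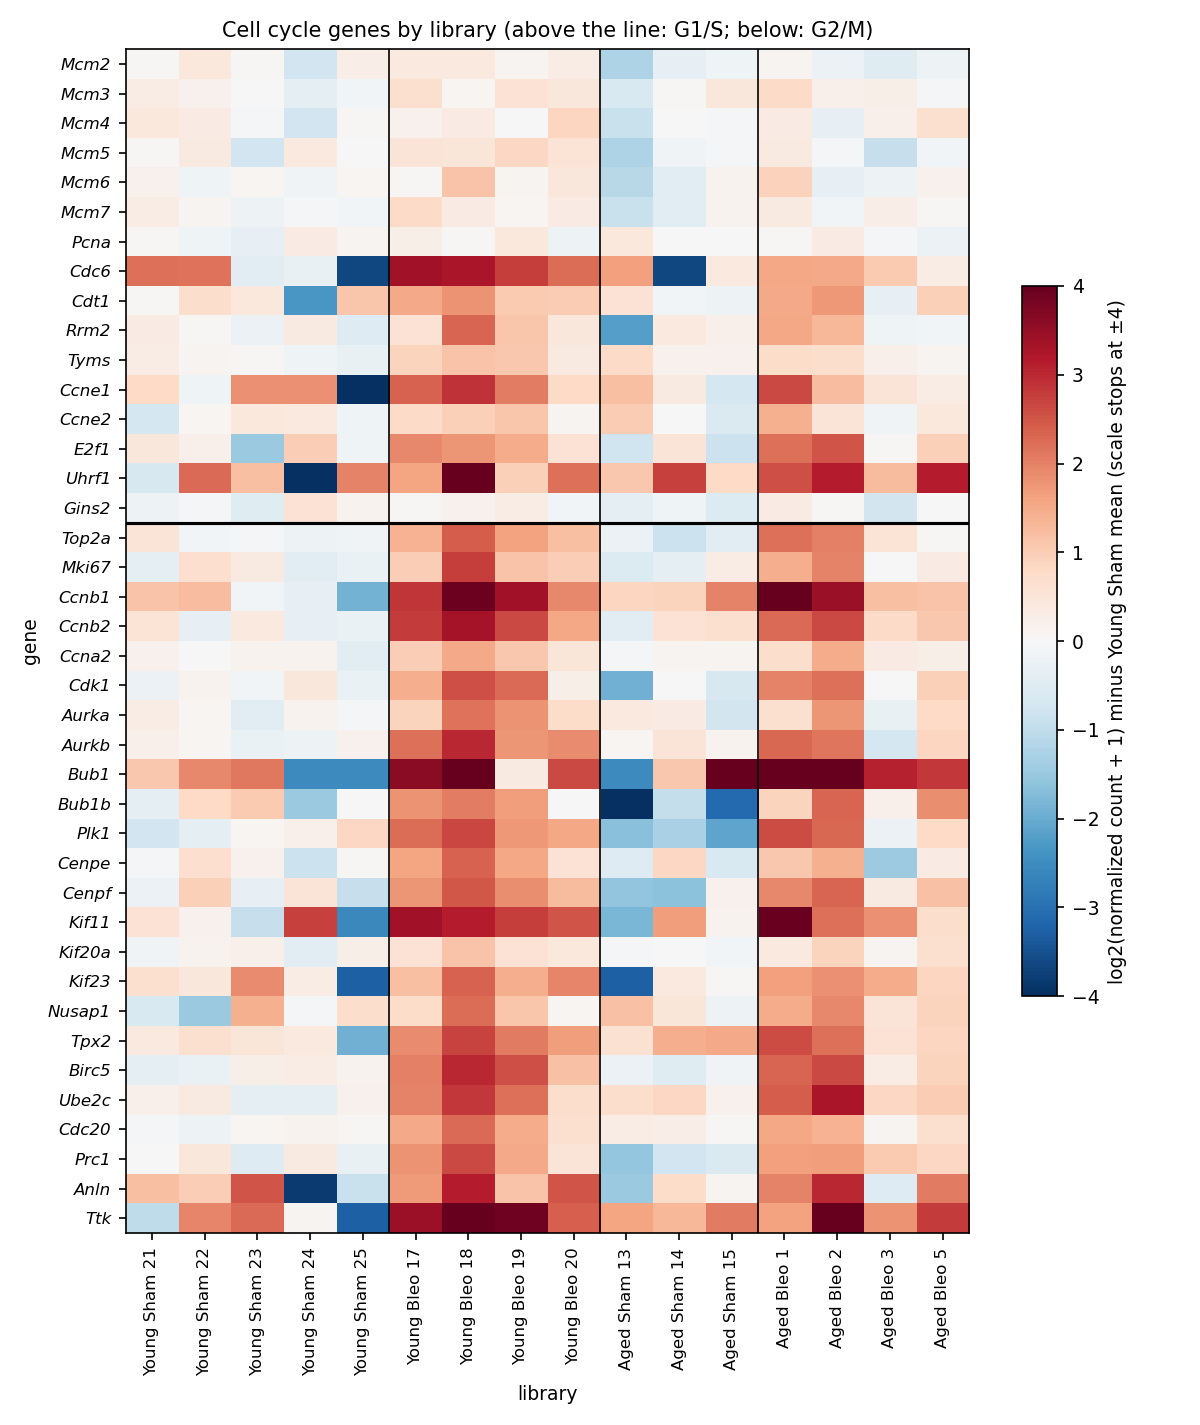
Log2(normalized count + 1) of each gene in each library, minus the mean of the 5 Young Sham libraries for that gene, with G1/S genes above the line and G2/M genes below, on a color scale that stops at 4 in either direction. The Young Bleo columns and Aged Bleo 1 and 2 are red over most G2/M rows, with the darkest cells in genes near 0 in sham libraries such as Ttk and Bub1.

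In aged mice compared with their own sham group, 9 of the 24 G2/M genes rose and 0 fell by DESeq2, with 1 of 16 G1/S genes called higher and 0 lower. The share of all genes called higher was 3.39%. By edgeR 2 G2/M genes and 0 G1/S genes were called higher, beside 0.448% of all genes. The median log2 fold change was 1.59 over the G2/M genes, 0.49 over the G1/S genes and 0.01 over all genes tested. Every Aged Bleo library exceeded every Aged Sham library in 11 G2/M genes and 0 G1/S genes, where 5.94% of all genes did so.

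Plk1 and Prc1 were called by both tools. Plk1, the Polo kinase, gave 20.0, 26.5 and 14.6 normalized counts in Aged Sham and 412, 329, 55.8 and 116 in Aged Bleo. The groups did not overlap, and libraries 1 and 2 were well above libraries 3 and 5. The log2 fold change was 3.49 ± 0.60 (adjusted p = 6.97e-06 by DESeq2 and 0.0442 by edgeR). In young mice Plk1 gave 38.7, 51.9, 69.7, 76.0 and 118 and 312, 423, 224 and 194, so that its sham level was lower in aged mice in every library, with a log2 difference of -1.80 ± 0.58 that missed the threshold (adjusted p = 0.0533). Prc1 gave 61.9, 107 and 122 in Aged Sham and 572, 579, 379 and 321 in Aged Bleo, also without overlap. Its log2 fold change was 2.24 ± 0.42 (adjusted p = 5.81e-05 by DESeq2 and 0.0442 by edgeR), and in young mice it gave 182, 249, 127, 232 and 149 and 637, 1127, 527 and 260.4.

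The other 7 G2/M genes called in aged mice were Top2a (1.98 ± 0.47), Cdk1 (2.19 ± 0.55), Ccnb2 (1.55 ± 0.48), Bub1b (3.82 ± 0.80), Cenpf (2.38 ± 0.57), Birc5 (2.13 ± 0.50) and Ube2c (1.64 ± 0.53), with edgeR adjusted p-values from 0.0554 to 0.138. Birc5 gave 97.9, 81.9 and 105 normalized counts in Aged Sham and 580.2, 725, 141 and 213 in Aged Bleo. Ccnb2 gave 69.9, 142 and 148 and then 458, 590.4, 161 and 201, where library 3 was only slightly above the highest sham library. Cenpf gave 22.0, 20.8 and 75.9 and 256, 339.8, 87.6 and 153. Cdc20, with 399.6, 395 and 338 in Aged Sham and 959.7, 854, 352 and 514 in Aged Bleo, overlapped in library 3 and was not called at 0.83 ± 0.35 (adjusted p = 0.154). The remaining 14 G2/M genes were not called either. Their log2 fold changes ran from 0.55 ± 0.54 (Tpx2) to 2.07 ± 0.99 (Kif11), with Mki67 (1.35 ± 0.53), Ccnb1 (1.71 ± 0.75), Ccna2 (0.72 ± 0.30), Aurka (0.84 ± 0.45), Aurkb (1.31 ± 0.54), Bub1 (1.23 ± 1.38), Ttk (1.38 ± 0.96), Cenpe (0.61 ± 0.60), Kif20a (0.59 ± 0.24), Kif23 (1.80 ± 0.79), Nusap1 (0.73 ± 0.61), and Anln (2.05 ± 0.94) between.

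Of the G1/S genes, E2f1 was called in aged mice by DESeq2. It gave 65.9, 167 and 63.1 normalized counts in Aged Sham and 536, 662, 119 and 226 in Aged Bleo, with library 3 inside the sham range. The log2 fold change was 1.96 ± 0.59 (adjusted p = 0.0214; edgeR 0.12), and the call was lost without Aged Sham 13, Aged Sham 15, Aged Bleo 1 or Aged Bleo 2. Mcm7 came next in order of p and gave 661, 914 and 1332 in Aged Sham and 1550.0, 1119.6, 1452 and 1262 in Aged Bleo, which overlapped, with a log2 fold change of 0.47 ± 0.23 (adjusted p = 0.246). In young mice Mcm7 gave 1507, 1327, 1049.8, 1145 and 1121 and 2066, 1546, 1299 and 1546. Tyms, called in young mice, gave 1141, 762 and 764 and 1117, 1097, 774 and 732 here, with a log2 fold change of 0.07 ± 0.24. Rrm2 gave 42.0, 258 and 225 and 572, 494, 176 and 181. The other licensing and helicase genes Mcm2, Mcm3, Mcm4, Mcm5, Mcm6, Cdc6, Cdt1 and Gins2 had log2 fold changes between 0.27 and 1.03, and Pcna had -0.12 ± 0.20. Uhrf1, Ccne1 and Ccne2 had 0.92 ± 0.98, 1.05 ± 0.95 and 0.39 ± 0.46.

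The 4 Aged Bleo libraries were not alike. Library 2 was the highest of its group in 16 of the 24 G2/M genes and library 1 in 8, while library 3 was the lowest in 16 and library 5 in 7. Library 1 exceeded every Aged Sham library in 23 G2/M genes, library 2 in 24, library 5 in 18 and library 3 in 12. For the G1/S genes the same counts were 12, 6, 6 and 2 of 16 for libraries 1, 2, 5 and 3. Within Young Bleo the counts against Young Sham were 21, 24, 20 and 18 of 24 G2/M genes for libraries 17 to 20.

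Aged Bleo was also compared with Young Sham, in a comparison that shares its sham libraries with that of the young mice. In it 14 of 24 G2/M genes and 1 of 16 G1/S genes rose by DESeq2 and 0 members fell, where 6.58% of all genes were called higher and 3.14% lower. By edgeR, which called 4.2% of all genes higher, these 7 G2/M genes were called: Ube2c (2.20 ± 0.46), Ccnb2 (1.86 ± 0.42), Birc5 (1.83 ± 0.44), Ccnb1 (2.69 ± 0.66), Cdc20 (1.03 ± 0.31), Prc1 (1.30 ± 0.36) and Top2a (1.45 ± 0.41). The other 7 by DESeq2 alone were Ccna2, Cdk1, Aurkb, Bub1, Plk1, Cenpf and Tpx2, between 0.77 and 3.42. The G1/S gene was E2f1 (1.53 ± 0.51, adjusted p = 0.0328; edgeR 0.0921). Fewer calls were made without either of the libraries with the highest levels, 3 G2/M genes without Aged Bleo 1 and 4 without Aged Bleo 2. In these fits 3.84% and 4.05% of all genes were called higher.

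Age alone and the difference between ages after injury gave few calls. In Aged Sham against Young Sham, 1 of 40 members was called, lower in aged mice, where 2.24% of all genes were called higher and 1.11% lower. This was Bub1b, which encodes BubR1, with 42.5, 95.6, 113, 18.7 and 54.8 normalized counts in Young Sham and 0, 27.7 and 5.48 in Aged Sham. The log2 fold change was -2.50 ± 0.77 (adjusted p = 0.0373; edgeR 0.223), the groups overlapped at library 24, and the call was lost without Young Sham 22, 23 or 25 or without Aged Sham 13 or 15. In 3 of the 24 G2/M genes (Top2a, Plk1 and Prc1) and 0 of the 16 G1/S genes every Aged Sham library was below every Young Sham library, where 3.78% of all genes were so. The margin was narrow for Top2a (124 in the highest Aged Sham and 125 in the lowest Young Sham library) and for Prc1 (122 and 127). None of the 3 was called (Top2a -0.53 ± 0.45 and Prc1 -0.94 ± 0.41). After injury Bub1b reached 191, 228, 175 and 53.3 in Young Bleo and 103, 280.1, 63.0 and 200.3 in Aged Bleo. In Aged Bleo against Young Bleo, 0 of 40 members were called by DESeq2 and 0 by edgeR, with 1 at an unadjusted DESeq2 p under 0.05 (Mcm5, -0.72 ± 0.31). The log2 difference was below 0 in 36 of 40, where it was so in 8836 of the 18515 genes tested. These signs are not separate results, since Young Bleo 18 alone was the highest of its group in 23 of the 24 G2/M genes. In 3 G1/S genes (Mcm2, Mcm5 and Cdc6) every Aged Bleo library was below every Young Bleo library, where 2.27% of all genes were so. Over all genes 0.616% were called higher and 0.41% lower in that comparison. Log2 differences were -0.82 ± 0.44 for Ccnb2 (95% interval -1.68 to 0.05), -0.51 ± 0.46 for Birc5 (95% interval -1.40 to 0.39) and -0.34 ± 0.52 for Plk1 (95% interval -1.36 to 0.68), so that differences of more than 2-fold are within the intervals.

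Whether the response to bleomycin differed with age was tested by an interaction term, as the aged log2 fold change minus the young. None of the 40 members was called by DESeq2, where 0.134% of all genes were called higher and 0.247% lower, and none by edgeR. At an unadjusted DESeq2 p under 0.05 there were 2, Tyms at -0.81 ± 0.32 and Bub1b at 2.50 ± 1.04. The difference was -1.13 ± 0.64 for Ccnb2 (95% interval -2.39 to 0.13), -0.76 ± 0.47 for Cdc20 (95% interval -1.68 to 0.16) and 0.48 ± 0.56 for Prc1 (95% interval -0.61 to 1.57). The larger number of calls in young mice is therefore not a difference between ages that passed a test.

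Markers of macrophages and monocytes were also higher in the bleomycin libraries, although the sort removed CD45-positive cells. Of 12 such markers, 7 were called higher in Young Bleo against Young Sham, 6 in Aged Bleo against Aged Sham and 0 lower. Their summed FPKM was 23.5 to 44.5 in Young Sham and 414, 437, 289 and 154 in Young Bleo libraries 17 to 20. It was 54.6, 184 and 56.8 in Aged Sham and 1535, 852, 364 and 213 in Aged Bleo, where libraries 1 and 2 were again the highest. Most of the sum was Lyz2, at 20.9 to 1265 FPKM, while Ptprc stayed at or below 0.517 FPKM and Adgre1 at or below 2.15. Cd68 was at 0.433 to 1.01 FPKM in Young Sham and 4.97 to 25.4 in Young Bleo, and at 0.494 to 3.10 in Aged Sham and 7.34 to 62.2 in Aged Bleo, and Chil3 reached 175 in Aged Bleo 1. Marco, Siglecf and Mmp12 were at 0 in 5 libraries each, all of them sham libraries for Mmp12, which was at 0.206 to 18.2 in Young Bleo and 1.75 to 8.31 in Aged Bleo. The sum of the 24 G2/M genes was 9.19, 9.61, 10.9, 8.37 and 8.36 FPKM in Young Sham and 27.0, 47.2, 28.3 and 17.6 in Young Bleo. In aged mice it was 7.45, 9.32 and 8.94 after sham and 29.2, 32.6, 11.2 and 15.4 after bleomycin. Aged Sham 14 had a macrophage sum above that of Young Bleo 20 and a G2/M sum in the sham range. The summed FPKM of 10 endothelial markers ran from 2604 to 2967 in Young Sham and from 1778 to 2274 in Young Bleo. In the aged groups it ran from 2306 to 2522 after sham and from 1651 to 2274 after bleomycin. The largest part of this sum was Cldn5, at 1451 to 1720 FPKM in Young Sham and 705 to 1032 in Young Bleo. In aged mice Cldn5 was at 1286 to 1447 after sham and 614 to 1129 after bleomycin. Of the 10 markers, 2 were called higher and 2 lower in young mice, beside 7.57% and 6.35% of all genes. In aged mice 1 was called higher and 1 lower, beside 3.39% and 2.44%. Other marker sums differed between groups as well. That of 4 mesothelial markers was 0.00405 to 1.18 FPKM in Young Sham and 4.96 to 15.3 in Young Bleo, and 2.72 to 12.4 and 0.506 to 5.50 in the aged groups, which overlapped. That of 5 platelet markers was 270.2 to 511 in Young Sham and 109 to 246 in Young Bleo, and 627 to 3384 and 65.0 to 482 in the aged groups, with Aged Sham 14 the highest. That of 6 pericyte and smooth muscle markers was 26.5 to 41.6 in Aged Sham and 11.8 to 17.6 in Aged Bleo, and that of 7 fibroblast markers 15.2 to 26.9 and 7.77 to 12.8, also without overlap, while both overlapped in young mice. That of 6 erythroid markers was at most 160.3 in Young Sham and 149 to 622 in Young Bleo, and 234 to 495 and 125 to 414 in the aged groups, with overlap at both ages. That of 5 neutrophil markers was 0.0807 to 0.773 in Young Sham and 0.451 to 1.22 in Young Bleo, and 0.418 to 3.39 and 2.10 to 9.64 in the aged groups, also with overlap at both ages. The sum of 10 lymphocyte markers was 27.2 in Aged Bleo 5 and at most 10.5 elsewhere. The RNA integrity numbers listed in the study's methods also ranged higher in the bleomycin groups, and the part of all these was not tested.

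**Figure D5:**
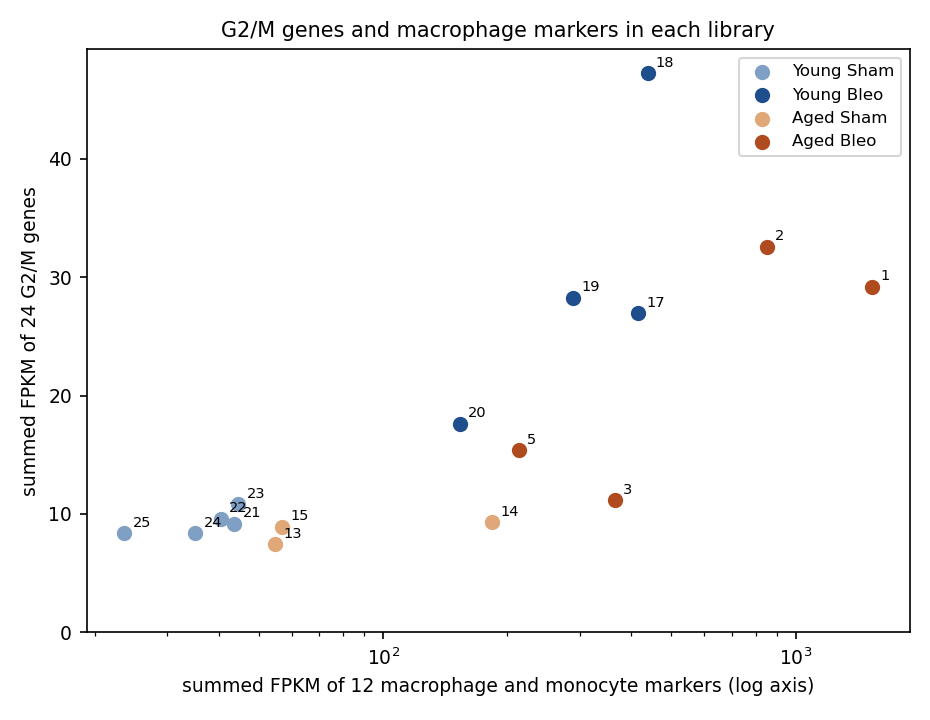
Summed FPKM of the 24 G2/M genes against the summed FPKM of 12 macrophage and monocyte markers (log axis) in each library, numbered as in the titles. Sham libraries lie at or below 10.9 FPKM of G2/M genes, and Aged Bleo 3 lies near them at 11.2.

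Leaving out the 2 libraries of each bleomycin group with the highest macrophage sums (Young Bleo 17 and 18, Aged Bleo 1 and 2), a choice made after seeing the data, left 2 libraries in each of these groups. In young mice 11 of the 24 G2/M genes were then called, all among the 18, where 3.92% of all genes tested in that fit were called higher, and Tyms kept its call. These were Ccnb1, Ccnb2, Ccna2, Aurka, Aurkb, Birc5, Plk1, Top2a, Tpx2, Ube2c and Cdc20, with Ccnb2 at 2.17 and Birc5 at 2.04 on the log2 scale. In aged mice 2 were called, Plk1 (2.09) and Prc1 (1.84), and against Young Sham 0 were, where 0.45% and 1.3% of all genes were called higher. The libraries kept still had macrophage sums of 289 and 154 FPKM in Young Bleo and 364 and 213 in Aged Bleo, above every sham library of their age. Those left out also had the highest G2/M means of their groups. This fit therefore cannot tell macrophage RNA and the G2/M level apart, and the part of macrophage RNA in these results was not tested.

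Genes of the same processes outside the 40 were read from lists that, like the 40, were chosen with earlier results of these data known. Of 30 other mitosis genes, 8 rose in Young Bleo against Young Sham (edgeR 7), 3 in Aged Bleo against Aged Sham (edgeR 0) and 0 fell in either. The shares of all genes called higher were 7.57% by DESeq2 and 5.69% by edgeR in the first comparison and 3.39% and 0.448% in the second. The median log2 fold changes of this list were 1.00 and 0.62. Smc4, a condensin subunit, gave 975, 1033, 1048, 1013 and 961 normalized counts in Young Sham and 1656, 1996, 1833 and 1293 in Young Bleo, without overlap (0.75 ± 0.16, adjusted p = 9.26e-05). Spc24, of the Ndc80 kinetochore complex, gave 4.72, 16.5, 30.8, 0 and 12.7 and 77.1, 160.1, 179.6 and 102 (3.37 ± 0.72, adjusted p = 9.89e-05). Of 38 other replication genes, 3 rose in young mice (edgeR 3) and 0 fell, with a median log2 fold change of 0.10. The 3 genes make a share near the 7.57% of all genes. In aged mice 0 rose and 2 fell, where 2.44% of all genes were called lower, with a median of 0.00. Chaf1b, of the histone chaperone CAF-1, gave 145, 182, 119, 140.4 and 269.9 in Young Sham and 607, 459.6, 558 and 278 in Young Bleo (1.47 ± 0.32, adjusted p = 0.000186). Tk1, the thymidine kinase of S phase, gave 123, 101, 59.5, 94.8 and 65.5 and 354, 603, 182 and 181 (1.89 ± 0.48, adjusted p = 0.00167). In these lists more mitosis than replication genes were called in young mice, and the difference between the lists was not tested. Because of how the lists were chosen, they are no separate support for the pattern in the 40 members.

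Among 13 D-type cyclins, their kinases and inhibitors, 3 inhibitors fell in Young Bleo against Young Sham and 0 genes rose, where 6.35% of all genes were called lower. Cdkn2b, which encodes p15, gave 13427, 13217, 12784, 13351 and 13254 normalized counts in Young Sham and 779.7, 849, 1225 and 5066 in Young Bleo. The 5 sham libraries lay close together, all injured libraries lay below them, and library 20, with the lowest G2/M mean of its group, was the highest. The log2 fold change was -2.74 ± 0.71 (adjusted p = 0.00198 by DESeq2 and 0.0328 by edgeR). In aged mice Cdkn2b gave 12615, 4318 and 13732 after sham and 448, 1228, 9629 and 6153 after bleomycin, where libraries 1 and 2, with the highest G2/M means, were the lowest, and it was not called (-1.23 ± 0.81, adjusted p = 0.44). The macrophage sums ran the other way from Cdkn2b in Young Bleo libraries 17 to 20, except that library 18 was above library 17 in both, and were highest in Aged Bleo 1 and 2. Aged Sham 14, the lowest in Cdkn2b of its group, had the highest macrophage sum and the highest G2/M mean of its group, the latter just above that of Aged Sham 15. The part of these in the level of Cdkn2b was not tested.

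Cdkn1a, which encodes p21, gave 25530.5, 27067, 24277, 37923 and 31192 normalized counts in Young Sham and 7777, 13181, 13109 and 21588 in Young Bleo (-1.07 ± 0.31, adjusted p = 0.00653; edgeR 0.0389). It gave 78960.3, 51899 and 53786 in Aged Sham and 14389, 31031, 46329.5 and 38406 in Aged Bleo. It was higher in Aged Sham than in Young Sham (1.08 ± 0.34, adjusted p = 0.0416; edgeR 0.142) and in Aged Bleo than in Young Bleo (1.23 ± 0.33, adjusted p = 0.0232; edgeR 0.246). Cdkn2a, the gene of p16 and p19Arf, fell in Young Bleo (-1.60 ± 0.49, adjusted p = 0.0107; edgeR 0.0553) and in Aged Bleo against its sham group (-1.66 ± 0.55, adjusted p = 0.0456; edgeR 0.142). Cdkn2c, which encodes p18, was higher in Aged Sham than in Young Sham (0.96 ± 0.28, adjusted p = 0.0208; edgeR 0.0978). Ccnd1, cyclin D1, was called higher by DESeq2 in Aged Sham (0.66 ± 0.18) and Aged Bleo (0.60 ± 0.16) than in Young Sham. By edgeR, 0 of the 13 genes of this list were called in Aged Sham against Young Sham and 1 in Aged Bleo against Young Sham. Cdk6, a kinase partner of cyclin D1, rose in Aged Bleo against Aged Sham (1.04 ± 0.31, adjusted p = 0.02; edgeR 0.0877).

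Of 19 pocket protein, E2F and DREAM or MuvB genes, 1 rose and 1 fell in Young Bleo against Young Sham, where 7.57% of all genes were called higher and 6.35% lower, so that the counts are near the background. E2f7, an E2F that represses its targets, gave 46.3, 69.2, 77.9, 98.3 and 81.2 normalized counts in Young Sham and 237, 188, 176 and 158 in Young Bleo, without overlap (1.35 ± 0.37, adjusted p = 0.00408; edgeR 0.0289). In aged mice it gave 63.9, 119 and 29.2 and 314, 214, 181 and 126 (1.57 ± 0.43, adjusted p = 0.0093; edgeR 0.0819), the 1 call of that list there. Rbl1, which encodes the pocket protein p107, gave 636, 627, 734, 827 and 489.8 in Young Sham and 285, 546, 277 and 495 in Young Bleo (-0.72 ± 0.26, adjusted p = 0.0339; edgeR 0.08), with overlap.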

How the data were processed

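RNA was sequenced from sorted lung ECs in 16 libraries. The authors aligned reads to mm10 with STAR 2.5.2b and counted them with featureCounts of Subread, and the deposited table holds raw counts and FPKM values for 43346 genes. The annotation release, strand setting and treatment of multiply mapped reads are not given in the sources used here. The labels name a SMART-Seq v4 and Nextera preparation and the methods TruSeq with poly(A) selection. Counts were fitted for all libraries with DESeq2 1.42.0 (Wald test, group as the only term), the study's tool, and with edgeR 4.0.16 (quasi-likelihood). Thresholds for a call were 0.05 for the adjusted p and 0.5 for the size of the log2 fold change. Both tools were tested on simulated data, where DESeq2 recovered more of the changed genes than edgeR but its share of false calls was well above the 0.05 threshold and that of edgeR was not. Intervals are 95% Wald limits, and normalized counts are scaled by DESeq2 size factors. The 40 members and all lists were chosen with earlier results of these data known, and the study also chose proliferation genes on these libraries. All 40 genes were named. Values per library were given for the most and least abundant members of each phase and those with the lowest adjusted p, and for others chosen after their values were seen. Alternatives were limma 3.58.1 on log2(FPKM + 0.1) and log2(FPKM + 1), TMM factors, a filter of 10 counts in 3 libraries, fits of 2 groups, and leaving out each library. Spearman correlations between libraries of a group were 0.953 to 0.986. Knl1, Sgo1 and Adgre1 were matched by identifier. Promoters were from RefSeq.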

Additional observations from a re-analysis of the deposited data

Results flagged for a closer look

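In groups of 4 or 5 libraries, the normalized counts of each member and both phase means were checked for a library far from the others, and 5 of 126 checks found one, where chance gives about 1 in 20. Mki67 was at 1088 in Young Bleo 18 against 313 to 346 in the other 3 libraries, and Mcm5 was at 1209 in Young Bleo 19 against 966 to 1006. In Young Sham, Top2a was at 211 in library 21 against 125 to 141, Kif11 at 117 in library 24 against 1.96 to 25.5, and Tpx2 at 20.5 in library 25 against 104 to 125. No cause was tested.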

How the results depend on the processing

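In young mice 14 to 18 G2/M genes were called when 1 library was left out, and 11 without the 2 libraries per bleomycin group highest in macrophage markers. The 1 G1/S call there ran from 1 to 3 with a library left out (3 without Young Bleo 20, 2 without Young Sham 24, Aged Sham 13 or 14 or Aged Bleo 3), and was 3 in the fit of the 2 young groups and 2 by limma on log2(FPKM + 0.1). In Aged Bleo against Aged Sham, the 9 G2/M calls became 2 by edgeR, 3 and 0 by limma with the pseudocounts of 0.1 and 1, and 2 without those libraries, and ran from 7 to 13 with a library left out. The G1/S call, E2f1, became 0 by edgeR, by limma with either pseudocount and without those libraries, and was 0 to 1 with a library left out. In Aged Bleo against Young Sham, the 14 G2/M calls became 7, 3, 2 and 0 under the same alternatives and ran from 3 to 17, and the G1/S call became 0 under each, and 0 to 1 with a library left out (0 without Young Sham 22, 23 or 25 or Aged Bleo 1 or 2). In Aged Sham against Young Sham, the 1 lower G2/M call became 0 by edgeR and by limma with either pseudocount and 2 with TMM factors, with Plk1 added, and ran from 0 to 2 (2 without Young Sham 21 or Aged Bleo 1, 3 or 5). In that comparison the fit of the 2 sham groups alone and the fit without the libraries highest in macrophage markers each called 1 gene, not Bub1b. In Aged Bleo against Young Bleo, 1 G1/S gene (Cdc6) was called lower in the fit of those 2 groups. The G1/S mean of Aged Bleo exceeded that of Aged Sham by 0.669, and by 0.741 with a pseudocount of 0.1 and 0.575 on CPM, and the G2/M mean of Young Bleo exceeded that of Young Sham by 1.92, and by 1.40 on CPM. The cause of these changes was not tested. Of the 45 member calls made by DESeq2 over the comparisons, 0 changed sign under any alternative run, and 25 were called without each library in turn. No paired analysis was possible because the numbers in the titles do not repeat between groups. Low counts limit the precision of the low members, of which Bub1 was at or under 3 counts in 3 libraries.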
